A study of Mus musculus with 119 samples.

Results

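The genes of plasminogen activation described here were Plau, Plat, Plaur and Serpinb2, chosen by symbol and not by any measured value. They were 4 of the 18098 genes measured by RNA-seq in 119 libraries of mouse bone marrow-derived macrophages (BMDMs) of the C57BL/6(NIMR) strain. Bone marrow cells were grown for a week in medium conditioned by L cells and then kept overnight in low serum. The study asked which genes of the LPS response depend on the kinase TPL-2 (Map3k8) and on the pathway below it. LPS, a bacterial cell wall lipid that activates TLR4, was given at 100 ng/ml. WT BMDMs were sequenced unstimulated and after 0.5 and 1 h of LPS with 6 libraries each, and after 2 h with 4. Map3k8[D270A] BMDMs, which carry a kinase-inactive TPL-2, were sequenced unstimulated and after 0.5, 1 and 2 h with 6 libraries each. Elk1-/-Elk4-/- BMDMs, which lack a pair of ternary complex factors (TCFs) that ERK1/2 phosphorylates, were sequenced at the same times with 4 libraries each. Nfkb1[SS/AA] BMDMs, whose p105 protein cannot be phosphorylated by the IκB kinase complex and so keeps hold of TPL-2, were sequenced unstimulated and after 0.5 and 1 h with 6 libraries each. WT BMDMs given the MKK1/2 inhibitor PD0325901 (0.1 µM) for 10 min before LPS were sequenced after 0.5 and 1 h of LPS with 6 libraries each. The same inhibitor without LPS was sequenced at 10, 40 and 70 min, and its solvent DMSO at 10 min, with 3 libraries each. WT BMDMs given the RSK inhibitor RSKi47 (2 µM) for 10 min were sequenced without LPS and after 1 and 2 h of LPS with 4 libraries each, and after 0.5 h with 3.

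Plasminogen circulates as an inactive precursor, and a pair of serine proteases turns it into plasmin, which degrades fibrin and matrix proteins. Plau encodes urokinase (uPA), which acts mainly at cell surfaces, and Plat encodes tissue-type plasminogen activator (tPA), best known for dissolving fibrin clots and also made in the nervous system. Plaur encodes the urokinase receptor (uPAR), a lipid-anchored surface protein that holds uPA on migrating leukocytes. Serpinb2 encodes plasminogen activator inhibitor 2 (PAI-2), a serpin that stays largely inside monocytes and macrophages and inhibits both activators, uPA most readily. Values below are normalised levels on the log2 scale of the deposited table. On a plain log2 scale 1 unit is a doubling, but how these values were transformed is not stated. They are not scaled to gene length, so levels are compared between conditions and never between genes.

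In the mouse genome (GRCm38.p6, RefSeq) Plau lies on chromosome 14 (20836662 to 20843388), Plat on chromosome 8 (22757722 to 22782848), Plaur on chromosome 7 (24460937 to 24475970) and Serpinb2 on chromosome 1 (107500892 to 107525600). The RefSeq promoter table of that build held 2 of the 4 genes. The 250 bases before a listed start are shown for these, Plaur and Serpinb2, as Plau and Plat had no entry. Capitals mark the AP-1 element searched for (TGANTCA, searched on both strands). The Plaur window is chr7:24462233-24462482 and the Serpinb2 window chr1:107511173-107511422, both on the plus strand. Both windows lie inside the gene spans given above.
Plaur: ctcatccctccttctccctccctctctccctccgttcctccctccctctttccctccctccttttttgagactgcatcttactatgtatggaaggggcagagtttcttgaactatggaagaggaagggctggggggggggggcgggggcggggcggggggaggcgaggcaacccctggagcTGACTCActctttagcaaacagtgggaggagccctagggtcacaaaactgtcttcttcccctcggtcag
Serpinb2: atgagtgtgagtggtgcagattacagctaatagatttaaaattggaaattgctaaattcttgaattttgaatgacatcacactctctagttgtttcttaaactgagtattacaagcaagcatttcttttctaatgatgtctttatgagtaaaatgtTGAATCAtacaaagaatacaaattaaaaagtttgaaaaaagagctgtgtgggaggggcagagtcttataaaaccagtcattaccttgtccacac
The element began at position -69 from the start in Plaur (TGACTCA) and at position -94 in Serpinb2 (TGAATCA), or at -181 from the second Serpinb2 start that the table lists, and 6.75% of the 32851 windows of this length in the table held a TGANTCA. A loose NF-κB pattern (3 G, any 5 bases, 2 C) was matched in the Plaur window, at positions -46 and -45 on opposite strands with overlap, and 45.8% of all windows matched it. Neither the cAMP response element TGACGTCA (1.55% of windows) nor the ETS core CCGGAA (12% of windows) was in either window. The matches describe letters in these windows and not sites of binding.

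The libraries carried the markers of macrophages: all 8 of the list (Csf1r, Adgre1, Cd68, Itgam, Lyz2, Fcgr1, Mertk, Cd14) passed a linear level (2 to the power of the value) of 10 in every arm, and 0 of 6 lymphocyte markers did in any. The libraries labelled Elk1-/-Elk4-/- held Elk1 at 6.17 to 6.59 against 9.04 to 9.49 in WT, and Elk4 at 5.51 to 5.88 against 7.57 to 8.49. Map3k8[D270A] and Nfkb1[SS/AA] change amino acids, so the level of the mutated gene does not check those labels. Depth is unknown, since the table gives no counts. The labels do not say that replicates came from separate animals or cultures, so p-values measure the spread between these libraries. The WT libraries carry the same experiment name in their descriptions as the Map3k8[D270A] libraries. For the other genotypes and both inhibitors, experiment and treatment or genotype cannot be told apart, and no library had DMSO with LPS. Fewer cells making an mRNA and less of it in each cell cannot be told apart in such bulk RNA.

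LPS raised all 4 genes in WT BMDMs within 1 h (limma, adjusted p below 0.05), against 23.8% of the 11884 genes tested that rose. By 0.5 h 1 of the 4, Plaur, had risen, against 7.82% of all genes. By 2 h 3 genes were above and Plau was below its unstimulated level, and 71.5% of all genes differed in either direction. Between 1 and 2 h all 4 moved, with Plat and Serpinb2 rising and Plau and Plaur falling, where 65.3% of all genes differed. The median difference over the 4 genes at 1 h was 2.45, and that over all genes 0.00. Marker lists moved with LPS too. The summed linear level of the dendritic cell list, with Flt3 under 10, was 25.6 to 28.4 unstimulated, 32.8 to 42.7 at 1 h and 74.9 to 86 at 2 h. From unstimulated to 2 h the fibroblast list went from 24.4 to 31.3 up to 57.2 to 77, the endothelial list from 153 to 259 up to 266 to 298 and the macrophage list from 399000 to 455000 up to 478000 to 525000. Their part in the members' values was not tested.

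Plau, the uPA gene, ranged from 12.84 to 13.40 in unstimulated WT BMDMs, with a median of 13.09. It lay between 13.26 and 13.73 after 1 h (median 13.35), and the 4 libraries at 2 h read 11.70, 11.83, 11.99 and 11.99. The first change was small and its groups overlapped, whereas every 2 h library lay below every unstimulated one. The 1 h difference was 0.33 ± 0.10 (SE; adjusted p = 0.00564) and the 2 h difference -1.19 ± 0.11 (adjusted p = 9.23e-14). From 1 to 2 h Plau fell by 1.53, which ranked 55 from the lowest of 11884 genes. At 0.5 h its difference was 0.21 ± 0.10 and did not pass (adjusted p = 0.195). Libraries of one replicate number went together within WT, and with these numbers as a block the same difference passed (adjusted p = 0.000832).

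Plat, the tPA gene, ranged from 3.97 to 4.23 before LPS (median 4.11) and was no different at 0.5 h beyond the spread (4.01 to 4.70, median 4.36, adjusted p = 0.277). It then ranged from 8.06 to 9.33 at 1 h (median 8.55) and read 9.28, 9.16, 9.15 and 8.94 at 2 h. The 0.5 and 1 h libraries did not overlap, and the highest at 0.5 h lay far below the lowest at 1 h. The 1 h difference of 4.52 ± 0.14 (adjusted p = 9.12e-34) ranked 17 from the highest of 11884, and at 2 h it was 5.01 ± 0.16 (adjusted p = 6.38e-34). The further step from 1 to 2 h was 0.49 ± 0.16 (adjusted p = 0.00543), with overlapping groups, and it did not pass when only these groups entered the fit (adjusted p = 0.137).

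Plaur, the receptor gene, ranged from 10.20 to 10.56 unstimulated (median 10.29), from 10.46 to 11.30 at 0.5 h (median 10.75) and from 12.23 to 12.54 at 1 h (median 12.43). At 2 h its libraries read 12.15, 12.18, 12.21 and 12.13. Plaur was thus the only 1 of the 4 genes past the test at 0.5 h, and it peaked at 1 h among the times sampled. Its differences were 0.48 ± 0.08 at 0.5 h (adjusted p = 1.98e-05), 2.09 ± 0.08 at 1 h (adjusted p = 4.51e-29) and 1.85 ± 0.09 at 2 h (adjusted p = 6.71e-25). The decline of 0.24 from 1 to 2 h passed (adjusted p = 0.0225), but without WT replicate 4 (adjusted p = 0.0602) or without WT replicate 6 (adjusted p = 0.0627) it did not.

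Serpinb2, the PAI-2 gene, lay between 3.22 and 3.75 unstimulated (median 3.45) and between 3.24 and 3.90 at 0.5 h (median 3.46). It ranged from 5.71 to 6.79 at 1 h (median 6.32) and read 7.31, 7.31, 7.94 and 7.02 at 2 h. It was the gene of the 4 that went on rising most between 1 and 2 h, by 1.10 ± 0.15 (adjusted p = 6.55e-09). Against unstimulated cells the difference was 2.81 ± 0.13 at 1 h (adjusted p = 2.07e-25) and 3.91 ± 0.15 at 2 h (adjusted p = 4.97e-30), ranks 75 and 70 from the highest of 11884.

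The WT libraries were also looked at in 2 sets, replicates 4 to 6 and 7 to 9, which were inferred from the replicate numbers and an earlier analysis of these data and are not in the labels. At 0.5 h Plaur differed by 0.26 in the first set (adjusted p = 0.0924) and by 0.70 in the second (adjusted p = 1.17e-07). Plat at 0.5 h read within the spread in the first set (adjusted p = 0.998) and differed by 0.51 in the second (adjusted p = 0.00298). Plau at 1 h differed by 0.34 (adjusted p = 0.0389) and by 0.32 (adjusted p = 0.0714). The differences between the sets did not pass for these 3 changes (adjusted p = 0.127, 0.332 and 0.997). They passed for the 1 h rise of Plat, smaller in the second set by 0.96 (adjusted p = 0.000879), and of Serpinb2, smaller by 0.90 (adjusted p = 0.0187).

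**Figure D1:**
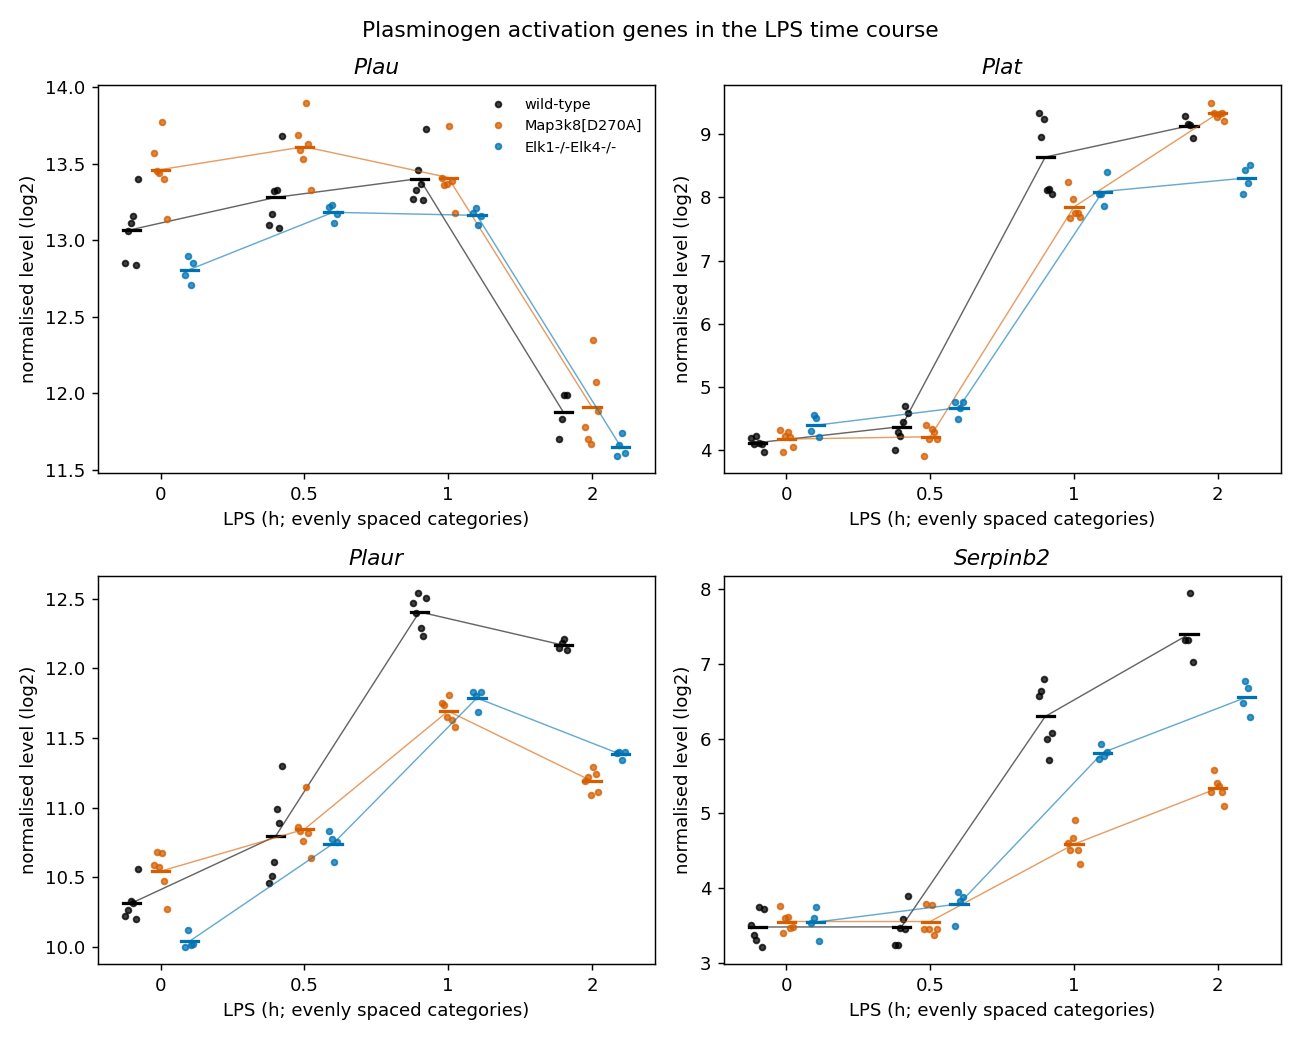
Normalised level (log2) of Plau, Plat, Plaur and Serpinb2 against hours of LPS (evenly spaced categories) in WT, Map3k8[D270A] and Elk1-/-Elk4-/- BMDMs. Points are libraries (4 to 6 a group) and bars are means, joined by lines; Plat and Serpinb2 step up between 0.5 and 1 h in all 3 genotypes, Plau drops between 1 and 2 h, and the WT mean lies above both others for Plaur and Serpinb2 from 1 h.

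The comparison of Map3k8[D270A] with WT asked which of these changes needed the kinase activity of TPL-2. After 1 h of LPS, 3 of the 4 genes were lower in Map3k8[D270A] BMDMs, and 4.64% of all genes were. After 2 h it was 2 of the 4, Plaur and Serpinb2, against 13.1% of all genes. Unstimulated, 1 of the 4 genes, Plau, was higher, where 0.606% of all genes were. At 0.5 h 0 of the 4 differed by limma's adjusted p, 1 did at an unadjusted p under 0.05 (Plau), and 1.37% of all genes differed.

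At 1 and 2 h the Serpinb2 difference was greater in size than those of the other 3 genes. In Map3k8[D270A] BMDMs it ranged from 4.33 to 4.91 at 1 h (median 4.56) and from 5.10 to 5.58 at 2 h (median 5.33), below every WT library of the same time. The difference was -1.71 ± 0.13 at 1 h (adjusted p = 1.63e-14) and -2.06 ± 0.15 at 2 h (adjusted p = 4.24e-16), ranks 7 and 9 from the lowest of 11884. The 2 h level of Map3k8[D270A] thus stayed below the lowest WT library at 1 h. At 2 h the summed linear level of the macrophage list was 418000 to 476000 in Map3k8[D270A] against 478000 to 525000 in WT, and that of the dendritic cell list at most 67.8 against 74.9 to 86, and their part in the 2 h values was not tested. The genotypes overlapped in Serpinb2 unstimulated and at 0.5 h, with a difference of 0.07 at each time.

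Plaur ranged from 11.58 to 11.81 at 1 h in Map3k8[D270A] (median 11.69) and from 11.09 to 11.29 at 2 h (median 11.21). Both groups lay below all WT libraries of their time. Its difference was -0.71 ± 0.08 at 1 h (adjusted p = 3.03e-09) and -0.98 ± 0.09 at 2 h (adjusted p = 2.54e-12). Before LPS Plaur stood at 10.27 to 10.68 in the mutant, 0.23 above WT, which did not pass (adjusted p = 0.191). Within WT replicates 4 to 6 and Map3k8[D270A] replicates 1 to 3 it was 0.34 and passed (adjusted p = 0.0478), and within the other replicates it was 0.11 (adjusted p = 0.697).

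Plat was lower at 1 h and not at 2 h. It ranged from 7.68 to 8.25 at 1 h in Map3k8[D270A] (median 7.75), overlapping WT, and from 9.21 to 9.50 at 2 h (median 9.33). Its difference was -0.79 ± 0.14 at 1 h (adjusted p = 6.27e-05) and 0.20 ± 0.16 at 2 h (adjusted p = 0.391). With only the compared groups in the fit the 1 h difference did not pass (adjusted p = 0.067).

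The 1 h difference of Plat was not alike in the same 2 runs of replicate numbers. WT replicates 4 to 6 were set against Map3k8[D270A] replicates 1 to 3, and WT replicates 7 to 9 against Map3k8[D270A] replicates 4 to 6, a division that no label gives. Plat in WT read 8.95 to 9.33 in the first set and 8.06 to 8.14 in the second, without overlap. Serpinb2 in WT likewise read 6.57 to 6.79 and 5.71 to 6.07. The Plat difference between genotypes was -1.20 ± 0.12 within the first set (adjusted p = 2.74e-10) and -0.37 ± 0.12 within the second (adjusted p = 0.0649). The Serpinb2 difference was -2.07 ± 0.15 (adjusted p = 1.42e-14) and -1.34 ± 0.15 (adjusted p = 9.38e-09), and the Plaur difference -0.76 ± 0.09 and -0.67 ± 0.09. The change between the sets passed for Plat (0.83, adjusted p = 0.00856) and not for Serpinb2 (0.73, adjusted p = 0.143) or Plaur (adjusted p = 0.877). At 2 h Serpinb2 differed by -2.10 in the first set and by -1.76 in the second, in which WT had 1 library.

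**Figure D2:**
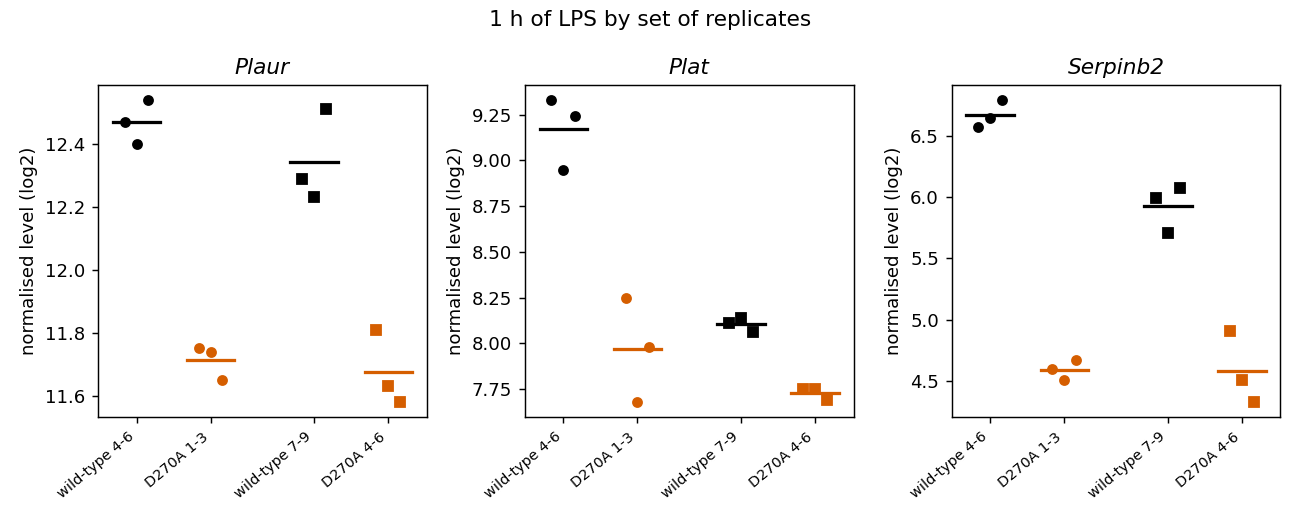
Normalised level (log2) of Plaur, Plat and Serpinb2 after 1 h of LPS in WT and Map3k8[D270A] BMDMs, split by the set of replicates (3 libraries each; points are libraries, bars are means). The WT libraries of Plat read 8.95 to 9.33 in one set and 8.06 to 8.14 in the other, while Map3k8[D270A] libraries lie below WT in each set.

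Plau stood at 13.14 to 13.77 in unstimulated Map3k8[D270A] BMDMs (median 13.44), overlapping WT, and differed by 0.39 ± 0.10 (adjusted p = 0.0313). That call was lost on leaving out any 1 of WT replicates 4, 5, 6 and 8 or Map3k8[D270A] replicates 1, 2, 4 and 5, with differences from 0.33 to 0.40. With only the compared groups in the fit it was also lost (adjusted p = 0.15), and within the sets it was 0.48 (adjusted p = 0.0752) and 0.30 (adjusted p = 0.401). At 0.5 h of LPS the Plau difference was 0.33 ± 0.10, with overlapping groups, and did not pass (adjusted p = 0.102), though it did with all 119 libraries in the fit (adjusted p = 0.00778) and without WT replicate 9 (adjusted p = 0.00949). The differences were 0.01 ± 0.10 at 1 h and 0.03 ± 0.11 at 2 h. Plau also dropped late in the mutant, from 13.18 to 13.75 at 1 h to between 11.67 and 12.35 at 2 h.

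The response to LPS itself, each genotype against its own unstimulated libraries, was compared next. The response at 1 h was smaller in Map3k8[D270A] for 3 of the 4 genes, where it was for 1.30% of all genes, and at 2 h for 2 of the 4, where it was for 8.60%. The difference of responses for Plaur was -0.94 ± 0.12 at 1 h (adjusted p = 7.53e-08) and -1.21 ± 0.12 at 2 h (adjusted p = 1.38e-10). For Serpinb2 it was -1.78 ± 0.19 (adjusted p = 1.3e-09) and -2.13 ± 0.20 (adjusted p = 1.07e-11). For Plat it was -0.84 ± 0.20 at 1 h (adjusted p = 0.00897) and 0.14 ± 0.21 at 2 h (adjusted p = 0.746). With only the compared groups in the fit the 1 h value of Plat did not pass (adjusted p = 0.101). The Plau response was -0.38 apart at 1 h and did not pass (adjusted p = 0.251), but did with all 119 libraries in the fit (adjusted p = 0.0452). With arm and replicate number as a block it passed at 1 h (-0.38, adjusted p = 9.35e-05) and at 2 h (-0.40, adjusted p = 2.49e-05), which made the counts 4 and 3 of the 4 genes.

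The Elk1-/-Elk4-/- comparison asked the same of the TCFs. After 1 h 3 of the 4 genes were lower than in WT (26.2% of all genes were), and after 2 h again 3 (23.1% of all genes). These were Plat, Plaur and Serpinb2 at each time. Unstimulated, 2 of the 4, Plau and Plaur, were lower (24.6% of all genes). At 0.5 h 0 of the 4 differed by limma, 1 did at an unadjusted p under 0.05 (Serpinb2), and 44.4% of all genes differed.

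Plat read 8.05, 8.05, 7.87 and 8.40 at 1 h in Elk1-/-Elk4-/- and 8.06, 8.43, 8.22 and 8.52 at 2 h. All 4 libraries at 2 h lay below every WT library, whereas the groups overlapped at 1 h. The difference was -0.54 ± 0.16 at 1 h (adjusted p = 0.00326) and -0.83 ± 0.17 at 2 h (adjusted p = 7.94e-05). Plaur read 11.83, 11.80, 11.69 and 11.83 at 1 h and 11.39, 11.40, 11.34 and 11.40 at 2 h, without overlap with WT at either time. Its difference was -0.62 ± 0.09 (adjusted p = 2.03e-07) and -0.79 ± 0.10 (adjusted p = 7.29e-09). Serpinb2 read 5.73, 5.93, 5.77 and 5.82 at 1 h, inside the WT range, and 6.48, 6.77, 6.67 and 6.29 at 2 h, below all of WT. Its difference was -0.48 ± 0.15 (adjusted p = 0.00612) and -0.84 ± 0.16 (adjusted p = 2.75e-05). With only the compared groups in the fit, the 1 h differences of Plat (adjusted p = 0.124) and Serpinb2 (adjusted p = 0.0592) did not pass. WT replicates 7 to 9 read 8.06 to 8.14 at 1 h for Plat and 5.71 to 6.07 for Serpinb2. The Elk1-/-Elk4-/- libraries overlapped these in both genes. They lay below WT replicates 4 to 6, at 8.95 to 9.33 and 6.57 to 6.79. The difference from either of these inferred sets alone was not tested.

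Without LPS Plaur read 10.00, 10.12, 10.01 and 10.02 in Elk1-/-Elk4-/-, below every WT library, a difference of -0.28 ± 0.09 (adjusted p = 0.0113). Plau was -0.27 ± 0.11 away (adjusted p = 0.0464) with overlapping groups. The Plau call was lost without any 1 of the 4 Elk1-/-Elk4-/- libraries (adjusted p = 0.0537 to 0.13) and without WT replicates 5, 6, 7 or 9. It was also lost without the filter on low values (adjusted p = 0.0684). After LPS Plau differed by -0.24 at 1 h (adjusted p = 0.0731), where the groups did not overlap, and by -0.23 at 2 h (adjusted p = 0.127). With all 119 libraries in the fit both passed (adjusted p = 0.0193 and 0.0459).

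The response to LPS was smaller in Elk1-/-Elk4-/- for 1 of the 4 genes at 1 h (0.942% of all genes) and for 3 at 2 h (8.76% of all genes). At 1 h this was Plat, with -0.82 ± 0.22 (adjusted p = 0.0473). That call was lost without any 1 Elk1-/-Elk4-/- library except replicate 4, and without WT replicates 4, 5 or 6. It was also lost with only the compared groups in the fit (adjusted p = 0.335). The Plaur response at 1 h did not pass (-0.34 ± 0.13, adjusted p = 0.321), but did with arm and replicate number as a block (-0.34, adjusted p = 0.0484). At 2 h the difference of responses was -1.10 ± 0.23 for Plat (adjusted p = 0.000504), -0.91 ± 0.22 for Serpinb2 (adjusted p = 0.00262) and -0.51 ± 0.14 for Plaur (adjusted p = 0.00626). The neutrophil marker list moved with this genotype: its summed linear level was 1060 to 2120 in Elk1-/-Elk4-/- against 78.4 to 218 in WT, with 6 of 8 genes at 10 or more in at least 1 library against 4 of 8, and Elane and Mpo under that level in both. Unstimulated, the macrophage list summed to 335000 to 356000 against 399000 to 455000 in WT. The mast cell list, in which Kit alone passed a level of 10, summed unstimulated to 85.7 to 165 against 32.8 to 82.5. At 1 h the macrophage list summed to 377000 to 398000 against 437000 to 493000 in WT, and at 2 h to 410000 to 430000 against 478000 to 525000. The megakaryocyte list, of which 1 of 4 genes (Pf4) passed a level of 10, summed to 2880 to 4400 over all times against 1570 to 2900. The endothelial list summed at 2 h to 394 to 481 against 266 to 298, with Cdh5, Tek and Emcn under that level, and the dendritic cell list to 56 to 63.6 against 74.9 to 86. The part of such cells in the values above was not tested.

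Set against each other, Elk1-/-Elk4-/- and Map3k8[D270A] differed in 1 of the 4 genes at 1 h (51.6% of all genes) and in 2 at 2 h (49.6% of all genes). Serpinb2 was higher in Elk1-/-Elk4-/- by 1.23 ± 0.15 at 1 h (adjusted p = 2.17e-09) and by 1.22 ± 0.15 at 2 h (adjusted p = 2.39e-09), without overlap. Plat was lower in Elk1-/-Elk4-/- at 2 h by -1.02 ± 0.16 (adjusted p = 4.12e-07), again without overlap. Plaur differed by 0.09 ± 0.09 at 1 h (adjusted p = 0.41) and by 0.19 ± 0.09 at 2 h (adjusted p = 0.0811), where its groups did not overlap.

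PD0325901 stops ERK1/2 activation just below TPL-2. The comparisons with either inhibitor share the WT libraries. With the inhibitor, 3 of the 4 genes were lower than in untreated WT after 1 h of LPS, and 19.3% of all genes were. After 0.5 h 0 of the 4 differed by limma, 0 did at an unadjusted p under 0.05, and 29.4% of all genes differed. Plat ranged from 6.99 to 7.54 at 1 h with PD0325901 (median 7.24), below every WT library, and differed by -1.35 ± 0.12 (adjusted p = 1.68e-16), rank 18 from the lowest of 11971. Plaur ranged from 11.74 to 11.95 (median 11.93), also without overlap, and differed by -0.52 ± 0.07 (adjusted p = 2.01e-09). Serpinb2 ranged from 5.41 to 5.89 (median 5.56), overlapped the lowest WT library and differed by -0.66 ± 0.14 (adjusted p = 5.77e-05). Plau ranged from 13.41 to 13.55 and differed by 0.08 ± 0.08 (adjusted p = 0.427). Without LPS, Plaur already stood higher with DMSO (median 10.63) than in unstimulated WT (median 10.29), without overlap. The medians were 13.39 against 13.09 for Plau, 4.26 against 4.11 for Plat and 3.38 against 3.45 for Serpinb2, with overlapping groups. The part of these differences without LPS in the values at 1 h was not tested. At 1 h the neutrophil list summed to 309 to 452 with PD0325901 against 86.9 to 218 in WT, and the endothelial list to 269 to 371 against 136 to 231, without overlap. Camp, Elane, Mpo and Retnlg of the first list and Cdh5, Tek and Emcn of the second were under a linear level of 10 in both arms. With DMSO and no LPS the lists summed to 189 to 308 and 384 to 418. In unstimulated WT they summed to 85.1 to 149 and 153 to 259, lower in each. The part of such cells was not tested.

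The libraries given PD0325901 without LPS showed that Plau and Plat also changed with time in the inhibitor. At 10 min PD0325901 and DMSO did not separate: 0 of the 4 genes differed by limma, 0 did at an unadjusted p under 0.05, and 0% of all genes were called, with 245 genes at an unadjusted p under 0.05. By 40 min 2 of the 4 genes had moved from 10 min, Plat and Plau, where 3.58% of all genes had, in a comparison added after the values were seen. By 70 min 3 of the 4 differed from 10 min (6.09% of all genes). Plau read 13.40, 13.46 and 13.41 at 10 min, 12.97, 12.97 and 12.91 at 40 min and 12.58, 12.54 and 12.55 at 70 min. The 3 times did not overlap, and the difference from 10 min was -0.47 ± 0.11 at 40 min (adjusted p = 0.00549) and -0.86 ± 0.11 at 70 min (adjusted p = 4.59e-09), the latter rank 25 from the lowest of 11971. The 40 min call was lost without any 1 of the 3 replicates (adjusted p = 0.0523 to 0.127). Plat went the other way, from 4.21, 4.25 and 4.30 at 10 min to 5.69, 5.45 and 5.26 at 40 min and 5.58, 5.41 and 5.20 at 70 min. It differed by 1.22 ± 0.17 at 40 min (adjusted p = 8.18e-08) and by 1.14 ± 0.17 at 70 min (adjusted p = 3.52e-07).

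Plaur was -0.34 ± 0.10 lower at 70 than at 10 min (adjusted p = 0.022), which was lost without any 1 of the 3 replicates (adjusted p = 0.0982 to 0.194). Serpinb2 lay between 3.37 and 3.65 over the 3 times. No libraries with DMSO or medium for 40 or 70 min were analysed here, so time in culture and the inhibitor cannot be told apart. The neutrophil list summed to 349 to 445 at 40 min and 350 to 358 at 70 min against 160 to 273 at 10 min. The dendritic cell list summed to 30.9 to 32.8 at 40 min and 29.8 to 32.1 at 70 min against 26.2 to 27.7. The endothelial list was lower at 70 min, at 307 to 376 against 381 to 421 at 10 min. The part of other cells in the rise of Plat was not tested.

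The cells given both PD0325901 and LPS for 0.5 h, which had also spent 40 min in the inhibitor, did not share the higher Plat level. They read 4.14 to 4.33 (median 4.22) and lay below all 3 libraries with the inhibitor alone for 40 min. The LPS response in PD0325901 was therefore computed from either baseline. Against the libraries of equal time in the inhibitor, the response at 0.5 h was smaller than in WT for 1 of the 4 genes, Plat, by -1.49 ± 0.19 (adjusted p = 4.64e-09; 0.760% of all genes were smaller). At 1 h all 4 responses differed (3.58% of all genes did), with Plat at -2.63 ± 0.19 (adjusted p = 3.86e-21), Serpinb2 at -0.77 ± 0.22 (adjusted p = 0.0207), Plaur at -0.49 ± 0.11 (adjusted p = 0.00176) and Plau at 0.60 ± 0.13 (adjusted p = 0.00067). Against the 10 min libraries the Plat difference was -0.28 at 0.5 h (adjusted p = 0.614) and -1.48 at 1 h (adjusted p = 6.5e-09). From that baseline the Plaur difference at 1 h was -0.83 (adjusted p = 1.76e-08), the Plau difference at 1 h turned to -0.27 (adjusted p = 0.299), and Serpinb2 no longer passed (adjusted p = 0.0724). The Serpinb2 call was also lost without any 1 of WT replicates 4, 5 and 6 or PD0325901 replicates 1, 2 and 3 (adjusted p = 0.052 to 0.123).

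**Figure D3:**
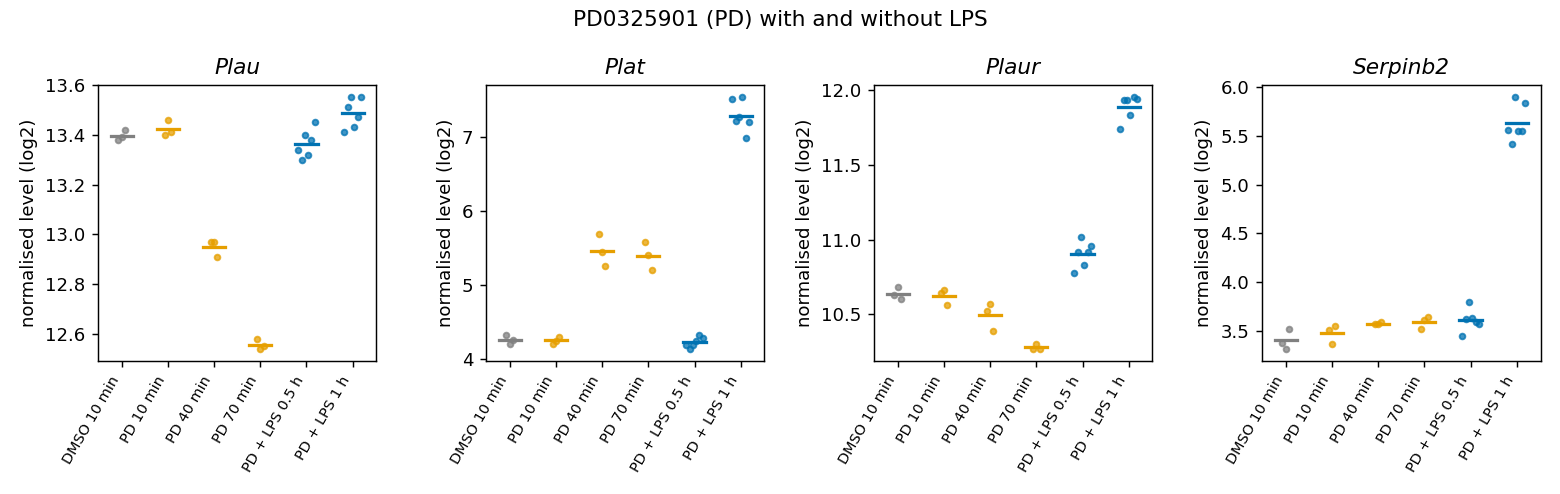
Normalised level (log2) of the 4 genes in WT BMDMs given DMSO for 10 min, PD0325901 without LPS for 10, 40 or 70 min (3 libraries each) or PD0325901 with LPS for 0.5 or 1 h (6 libraries each). Points are libraries and bars are means; without LPS Plau steps down and Plat steps up after 10 min, and Plat with LPS for 0.5 h sits at 4.14 to 4.33.

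RSK kinases are activated by ERK1/2, and RSKi47 was used to inhibit them. All 4 genes differed from untreated WT after 1 h of LPS, 3 of them lower and Plau higher, while 52.8% of all genes differed. After 2 h 3 of the 4 differed (52.1% of all genes). At 0.5 h 0 of the 4 differed by limma and 0 at an unadjusted p under 0.05 (48.2% of all genes). Without LPS 0 of the 4 differed by limma and 1, Plaur, at an unadjusted p under 0.05 (53.0% of all genes). Serpinb2 read 5.31, 4.90, 5.01 and 4.59 at 1 h and 5.69, 5.83, 6.21 and 5.74 at 2 h, below every WT library. Its difference was -1.34 ± 0.15 (adjusted p = 2.05e-12) and -1.52 ± 0.17 (adjusted p = 4.14e-13), ranks 34 and 43 from the lowest of 11971. Plat read 7.98, 7.72, 7.60 and 7.50 at 1 h, below WT by -0.94 ± 0.14 (adjusted p = 6.81e-09). At 2 h it read 8.82, 9.14, 9.08 and 9.05 and overlapped WT (-0.11 ± 0.15, adjusted p = 0.562).

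Plaur read 12.05, 11.85, 11.88 and 11.84 at 1 h with RSKi47 and 11.87, 11.93, 12.05 and 11.77 at 2 h, without overlap with WT. Its difference shrank from -0.50 ± 0.08 (adjusted p = 5.32e-08) to -0.26 ± 0.09 (adjusted p = 0.00696), though the change between the times was not tested. Plau was 0.28 ± 0.09 higher at 1 h (adjusted p = 0.00698) with overlapping groups, and 0.36 ± 0.10 higher at 2 h (adjusted p = 0.00126) without overlap, at 12.27, 12.23, 12.21 and 12.24. The response to LPS was smaller with RSKi47 for 3 of the 4 genes at 1 h (3.27% of all genes) and for 2 at 2 h (10.4% of all genes). For Serpinb2 the difference of responses was -1.43 ± 0.22 (adjusted p = 7.25e-07) and -1.61 ± 0.23 (adjusted p = 1.87e-08), and for Plaur -0.66 ± 0.11 (adjusted p = 7.25e-06) and -0.42 ± 0.12 (adjusted p = 0.00402). For Plat it was -1.20 ± 0.19 at 1 h (adjusted p = 3.09e-06) and -0.37 ± 0.20 at 2 h (adjusted p = 0.206). The Plau response at 2 h did not pass (0.24 ± 0.13, adjusted p = 0.204) but was larger with RSKi47 with arm and replicate number as a block (0.20, adjusted p = 0.0141). The fibroblast list summed to 43.5 to 696 in RSKi47 libraries against 23.8 to 77 in WT, with 3 of 7 genes (Col1a1, Col1a2, Pdgfrb) at 10 or more in at least 1 library in each, and Col3a1, Dcn, Lum and Pdgfra under it. The 696 was replicate 4 without LPS, where the other replicates read 57.5 to 74.9. Replicate 4 was also the highest at 1 h (174) and at 2 h (117). At 1 h the fibroblast list summed to 43.7 to 174 against 26.2 to 45.3, and at 2 h to 75.1 to 117 against 57.2 to 77. The endothelial list summed at 1 h to 282 to 398 against 136 to 231, and the neutrophil list at 2 h to 244 to 388 against 87.9 to 216, both without overlap. The macrophage list was also above WT at 1 h (497000 to 516000 against 437000 to 493000). Their part in the result was not tested.

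Nfkb1[SS/AA] gave a different pattern. After 1 h of LPS 3 of the 4 genes differed from WT (42.5% of all genes): Plat and Plaur were lower and Plau was higher. Plat ranged from 5.41 to 6.05 (median 5.56), against 8.06 in the lowest WT library. Its difference of -3.02 ± 0.12 (adjusted p = 3.56e-40) ranked 5 from the lowest of 11971 genes. Plaur ranged from 11.86 to 12.22 (median 12.09) and differed by -0.32 ± 0.07 (adjusted p = 7.93e-05), and Plau ranged from 13.83 to 14.15 (median 13.93) and differed by 0.57 ± 0.08 (adjusted p = 5.73e-09). Neither gene overlapped WT. Serpinb2 ranged from 5.36 to 6.68 (median 6.24), overlapping WT, and its difference of -0.21 ± 0.14 did not pass (adjusted p = 0.22). Its libraries read 6.11, 5.38, 5.36, 6.63, 6.38 and 6.68, with replicates 2 and 3 the lowest.

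Before LPS 2 of the 4 genes were higher in Nfkb1[SS/AA] (16.9% of all genes), and at 0.5 h 3 of the 4 were (16.7% of all genes). Unstimulated Plaur ranged from 10.64 to 10.87 (median 10.84), above all WT libraries by 0.49 ± 0.07 (adjusted p = 1.56e-08). Unstimulated Plat ranged from 4.34 to 4.63 (median 4.45), also above all of WT, by 0.36 ± 0.12 (adjusted p = 0.0164). At 0.5 h Plau, Plaur and Serpinb2 were higher by 0.34 ± 0.08, 0.41 ± 0.07 and 0.41 ± 0.14, with overlapping groups. The macrophage list at 0.5 h summed to 443000 to 563000 in Nfkb1[SS/AA] against 394000 to 439000 in WT, and its part in these values was not tested. With the label number as a block, Plat unstimulated (adjusted p = 0.199) and Serpinb2 at 0.5 h (adjusted p = 0.056) did not pass. In the response at 1 h 3 of the 4 genes differed (6.07% of all genes): Plat by -3.38 ± 0.17 (adjusted p = 8.32e-32), rank 2 from the lowest, Plaur by -0.81 ± 0.10 (adjusted p = 2.52e-10) and Plau by 0.44 ± 0.11 (adjusted p = 0.00554). The mean rise of Plat over 1 h of LPS was 1.14 in Nfkb1[SS/AA] and 4.52 in WT.

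**Figure D4:**
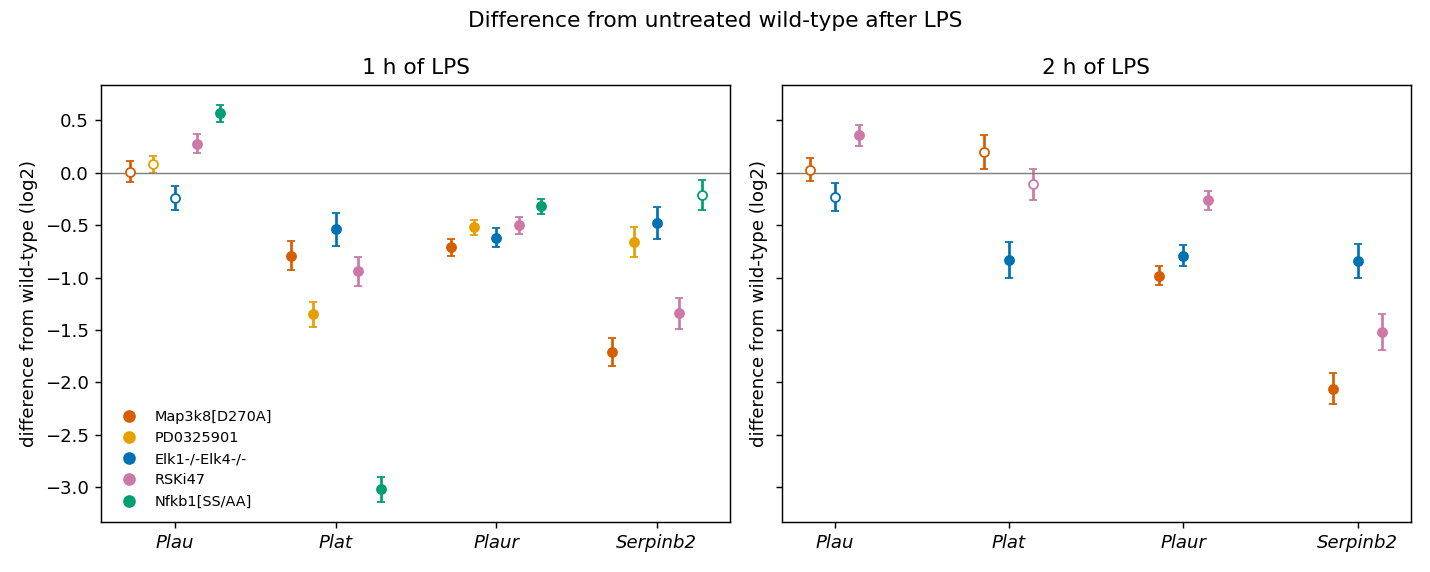
Difference from untreated WT (log2, limma estimate with bars of 1 SE) for the 4 genes after 1 h and 2 h of LPS in each genotype or inhibitor with libraries at that time. Filled points passed an adjusted p of 0.05 and open points did not; Plat in Nfkb1[SS/AA] sits at -3.02, and the 5 values of Plaur at 1 h lie between -0.71 and -0.32.

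The arms were also set against each other at 1 h. PD0325901 and Map3k8[D270A] differed in 3 of the 4 genes (40.7% of all genes). With PD0325901, Serpinb2 was higher by 1.04 ± 0.14 (adjusted p = 1.09e-09) and Plat was lower by -0.56 ± 0.12 (adjusted p = 0.000113), both without overlap, and Plaur was 0.19 ± 0.07 higher (adjusted p = 0.0206). RSKi47 and PD0325901 differed in 2 of the 4 (53.9% of all genes). With RSKi47, Serpinb2 was lower by -0.68 ± 0.15 (adjusted p = 9.48e-05) without overlap. Plat was 0.41 ± 0.14 higher with RSKi47 (adjusted p = 0.00794), which was lost without RSKi47 replicate 1 (0.32, adjusted p = 0.0689). Between Nfkb1[SS/AA] and Map3k8[D270A], compared after the values were seen, 3 of the 4 genes were higher (22.7% of all genes) and 1 lower (24.6% of all genes) in Nfkb1[SS/AA]. Plat was lower in Nfkb1[SS/AA] by -2.23 ± 0.12 (adjusted p = 4.62e-30), while Serpinb2 was higher by 1.50 ± 0.14 (adjusted p = 1.33e-16), Plau by 0.56 ± 0.08 (adjusted p = 6.92e-09) and Plaur by 0.39 ± 0.07 (adjusted p = 2.07e-06). No group overlapped the other in any of the 4. The order of the arms at 1 h was therefore not the same for Plat and Serpinb2, as the plot of levels by arm shows.

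**Figure D5:**
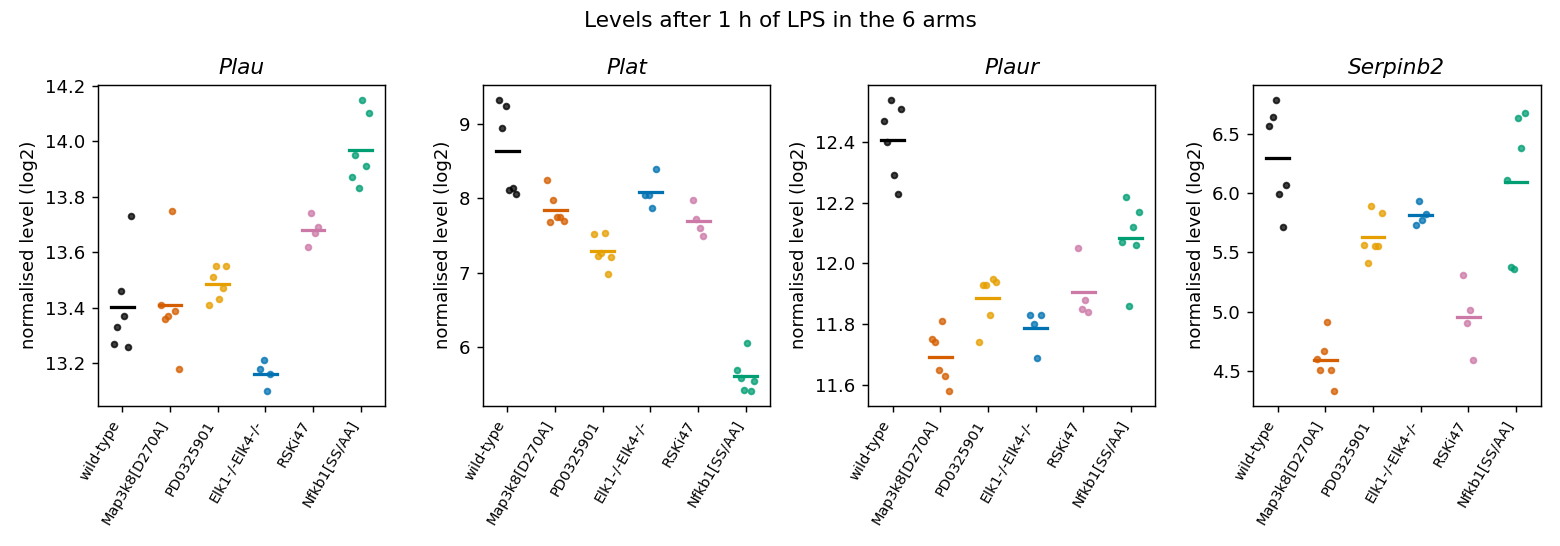
Normalised level (log2) of the 4 genes after 1 h of LPS in WT, Map3k8[D270A], PD0325901, Elk1-/-Elk4-/-, RSKi47 and Nfkb1[SS/AA] libraries (points; bars are means; 4 to 6 libraries an arm). Plat is lowest in Nfkb1[SS/AA] (5.41 to 6.05), whereas Serpinb2 is lowest in Map3k8[D270A] (4.33 to 4.91).

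Over all 25 groups, Plau had its highest mean in Nfkb1[SS/AA] at 1 h (13.97 ± 0.13, SD, n = 6) and its lowest in Elk1-/-Elk4-/- at 2 h (11.65 ± 0.07, n = 4). The 4 groups at 2 h of LPS were the lowest 4 of the 25. Plat was highest in Map3k8[D270A] at 2 h (9.33 ± 0.10, n = 6) and lowest in unstimulated WT (4.12 ± 0.09, n = 6). Groups with 1 or 2 h of LPS took the first 10 places for Plat, and the PD0325901 groups of 40 and 70 min without LPS came next. Plaur was highest in WT at 1 h (12.41 ± 0.13, n = 6) and lowest in unstimulated Elk1-/-Elk4-/- (10.04 ± 0.05, n = 4). Serpinb2 was highest in WT at 2 h (7.39 ± 0.39, n = 4) and lowest with DMSO (3.41 ± 0.10, n = 3). Of the 24 pairs of neighbours in each order, the libraries overlapped in 20 for Plau, 22 for Plat, 19 for Plaur and 22 for Serpinb2. For Serpinb2 the 2 gaps lay below WT at 2 h and between Map3k8[D270A] at 1 h (4.59) and Nfkb1[SS/AA] at 0.5 h (3.89). For Plat they lay on either side of the run from Nfkb1[SS/AA] at 1 h (5.62) to PD0325901 at 70 min (5.40).

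Across the 25 group means Pearson's r between Plat and Serpinb2 was 0.88, between Plaur and Serpinb2 0.87 and between Plaur and Plat 0.79. Plau gave -0.54 with Plat, -0.43 with Serpinb2 and -0.03 with Plaur. These are descriptions over 25 points that share libraries and a common LPS time course. By the same measure, the genes most like Plau were Atg4c (0.931), Fam110b (0.918) and Gab3 (0.911). Those most like Plat were Rhof (0.965), Sema6d (0.965) and Tpbg (0.963). Those most like Plaur were Bcl10 (0.950), Arih2 (0.946) and Trim13 (0.943), and those most like Serpinb2 were P2ry2 (0.969), Stk40 (0.968) and Ptgs2os2 (0.962).

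Of the other genes of the system, 33 were in the table and 26 passed the filter on low values. Among these 26, 11 rose and 1 fell after 1 h of LPS in WT (23.8% and 23.0% of all genes), with a median difference of 0.13 against 0.00 over all genes. After 2 h 12 rose and 3 fell (34.7% and 36.8% of all genes).

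Serpine2 encodes protease nexin 1, which inhibits thrombin and the plasminogen activators. It did not pass with LPS in WT, but rose with Plat in PD0325901 without LPS, by 2.11 ± 0.22 at 40 min (adjusted p = 4.92e-13) and by 2.21 ± 0.22 at 70 min (adjusted p = 4.3e-14), from 5.51 to 5.65 at 10 min to between 7.59 and 8.08 at 70 min. It stood at 5.26 to 5.49 with PD0325901 and 0.5 h of LPS. Among the surface receptors of plasminogen, Anxa2 and S100a10, which together form annexin A2 heterotetramer, rose by 0.56 ± 0.06 (adjusted p = 1.15e-11) and 0.57 ± 0.04 (adjusted p = 7.59e-20) after 2 h in WT. S100a10 was lower in Map3k8[D270A] by -0.22 ± 0.03 at 1 h (adjusted p = 2.38e-06) and by -0.20 ± 0.04 at 2 h (adjusted p = 4.42e-05). It was also lower with RSKi47 at 1 h by -0.54 ± 0.05 (adjusted p = 2.85e-18), but higher with PD0325901 at 1 h by 0.16 ± 0.04 (adjusted p = 0.001) and in Elk1-/-Elk4-/- at 2 h by 0.10 ± 0.04 (adjusted p = 0.0437). With RSKi47 S100a10 was already lower without LPS, at 11.59 to 11.68 against 11.97 to 12.13 in unstimulated WT. With DMSO (12.14 to 12.18) and with PD0325901 for 10 min (12.18 to 12.20) it was already above unstimulated WT. Its response to LPS at 1 h with PD0325901 did not pass against that of WT. Plgrkt, a transmembrane plasminogen receptor, did not pass at 1 or 2 h (adjusted p = 0.547 and 0.463). Lrp1, an endocytic receptor that clears complexes of activators with inhibitors, fell by 0.49 at 2 h (adjusted p = 0.0286).

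The other genes of the system were counted in each direction between arms. Against WT at 1 h, 0 of the 26 were higher and 5 lower in Map3k8[D270A] (5.14% and 4.64% of all genes), the 5 being Serpinb8, S100a10, Mmp13, F3 and Thbd. In Elk1-/-Elk4-/- 9 were higher and 7 lower (27.2% and 26.2% of all genes). With RSKi47 8 were higher and 8 lower (26.5% and 26.3% of all genes). With PD0325901 9 were higher and 2 lower (16.4% and 19.3% of all genes). In Nfkb1[SS/AA] 6 were higher and 5 lower (20.5% and 21.9% of all genes). At 2 h 2 were higher and 5 lower (14.6% and 13.1% of all genes) in Map3k8[D270A]. In Elk1-/-Elk4-/- 8 were higher and 8 lower (27.7% and 23.1% of all genes) at that time, and with RSKi47 6 were higher and 9 lower (27.5% and 24.6% of all genes). Counts of 26 genes lie near these shares in several of the comparisons. Of the 7 proteases, 5 were lower in Elk1-/-Elk4-/- at 2 h and 2 higher (Ctsb and Hgf), the lower being Mmp9, Mmp12, Mmp13, Mmp14 and St14, with a median difference of -0.62 against 0.02 over all genes. Of these 7, Mmp12, Mmp14 and St14 were also lower, and Ctsb, Hgf and Mmp13 higher, in unstimulated Elk1-/-Elk4-/- BMDMs, where 24.6% of all genes were lower and 27.2% higher. Of the coagulation genes, F3, which encodes tissue factor, was higher in WT at 0.5, 1 and 2 h, and F10 at 1 and 2 h. F3 ranged from 5.84 to 7.51 at 0.5 h against 4.74 to 5.46 unstimulated. Thbd, which encodes thrombomodulin, rose by 0.22 ± 0.07 at 0.5 h (adjusted p = 0.0356) and was below its unstimulated level at 1 h by -0.94 ± 0.07 (adjusted p = 1.2e-16) and at 2 h by -1.26 ± 0.08 (adjusted p = 3.22e-20).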

How the data were processed

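RNA-seq libraries of mouse BMDMs (119, in 25 groups taken from the sample labels) were analysed. The authors' deposited table gives normalised gene expression values on a log2 scale, from -2.40 to 19.81 for 18098 genes. How they were transformed is not stated in the sources, so a difference of 1, called 2-fold here, need not be an exact doubling. The submitters' processing notes name the build mm10, RSEM (1.2.29), STAR (2.5.1b) and DESeq2 (1.10.1). Depth and its precision are unknown, as no counts are given. 1 value (57.73, Fosb) was treated as missing. No 2 libraries were identical.

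Genes with a linear level (2 to the power of the value) of at least 10 in 4 of 62 libraries (WT, Map3k8[D270A], Elk1-/-Elk4-/-; 11884 genes) or in 3 of all 119 (11971 genes) were tested with limma 3.58.1 in R 4.3.3, 1 mean per group and no covariates. The first fit served comparisons among those 3 genotypes, the second all others. Adjusted p-values are Benjamini-Hochberg over all genes tested, called below 0.05, and the errors of differences are SE. All 4 members passed the filter through unstimulated libraries too: Plau, Plat and Plaur in 38 of 38 libraries without LPS and Serpinb2 in 35. The fit was tested on simulated data. Named were the 4 members in every comparison, a fixed set of pathway genes and, for each member, the 3 genes with the most similar group means (Pearson's r). Genes named by a list's call, such as the proteases, fall outside this rule and were named after their values were seen. The members and lists were chosen with earlier results of these data known. Replicate numbers paired libraries within WT, where every pair of equal number deviated together (lowest correlation 0.16 over 30 pairs), and within Nfkb1[SS/AA] (lowest 0.14 over 18 pairs). Every such pair was also positive within Map3k8[D270A] (lowest 0.07 over 36 pairs) and with RSKi47 (lowest 0.07 over 21 pairs). Within Elk1-/-Elk4-/- and with PD0325901 some pairs were negative (lowest -0.22 and -0.27). This pairing comes from the data and not from the labels. Between arms the numbers did not pair libraries. Alternatives were the block, the filter, the libraries in the fit, trend and robust options, median centring, a 2-fold threshold, the baseline for PD0325901, sets of replicates and leaving out each replicate. Promoters and gene positions are from RefSeq (GRCm38.p6). Plg and protein sequences were not analysed here. Some genes of the lists are not reported here.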

Additional observations from a re-analysis of the deposited data

Results flagged for a closer look

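Each of the 4 genes was checked in each group of 4 to 6 libraries for a single library apart. Of these 80 combinations of gene and group, 3 held one far from the rest, where chance gives about 1 in 20. All 3 concern Plaur: replicate 9 of unstimulated WT, above the others at 10.56, replicate 2 of unstimulated Elk1-/-Elk4-/-, above the others at 10.12, and replicate 3 of Elk1-/-Elk4-/- at 2 h, below the others at 11.34.

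Of 28 differences between the sets of replicates, 3 passed. The LPS response of WT at 1 h was smaller in WT replicates 7 to 9 than in 4 to 6 by -0.96 for Plat (adjusted p = 0.000879) and by -0.90 for Serpinb2 (adjusted p = 0.0187). The difference of Plat between Map3k8[D270A] and WT at 1 h was nearer to 0 in the second set by 0.83 (adjusted p = 0.00856), and in each set all 3 Map3k8[D270A] libraries lay below all 3 WT libraries.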

How the results depend on the processing

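Counts of members passing the test are given here. Leaving out 1 replicate at a time kept 1670 of 1724 member results on their side of the threshold, with 37 lost and 17 gained and no change of direction among called values. The limma trend and robust options kept all 168, and median centring kept 167. What depth limits cannot be stated, since the table gives none. With the replicate number of the labels as a replicate block, the count became 2 for Map3k8[D270A] against WT unstimulated and 1 at 0.5 h, 1 for Elk1-/-Elk4-/- against WT unstimulated, 2 for Elk1-/-Elk4-/- against Map3k8[D270A] at 1 h, 2 for PD0325901 at 0.5 h, and 2 for RSKi47 without LPS and 1 at 0.5 h. These numbers do not pair libraries between arms. With arm and number together as the replicate block, the pairing found within WT and some other arms, it became 2 for LPS at 0.5 h in WT and 2 for the response of Elk1-/-Elk4-/- at 1 h. In all, counting those above, the 2 blocks moved 13 and 5 member results to passing and 3 and 0 to not passing.

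Without the filter on low values, 1 member passed for Elk1-/-Elk4-/- unstimulated and 0 for its response at 1 h, and with median centring 1 for Elk1-/-Elk4-/- unstimulated. With only the compared groups in the fit, 0 passed for Map3k8[D270A] unstimulated, 0 for the response of Elk1-/-Elk4-/- at 1 h, 2 for Elk1-/-Elk4-/- against Map3k8[D270A] at 1 h and 1 for RSKi47 without LPS. With all libraries, 1 passed for Map3k8[D270A] at 0.5 h, and for Elk1-/-Elk4-/- against Map3k8[D270A] 2 at 1 h and 4 at 2 h. With WT replicates 7 to 9 and Map3k8[D270A] replicates 4 to 6 alone, 0 passed unstimulated, and with the other replicates 1 did, Plaur in place of Plau. With 10 min of PD0325901 as its baseline, the response counts became 0 at 0.5 h and 2 at 1 h, and Plau turned to -0.27 at 1 h. The cause of these shifts was not tested.

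With a 2-fold difference also required, 0 passed for LPS at 0.5 h in WT, Map3k8[D270A] unstimulated, Elk1-/-Elk4-/- unstimulated, at 1 h and at 2 h, its response at 1 h, Nfkb1[SS/AA] unstimulated and at 0.5 h, and RSKi47 against PD0325901. It left 1 for Map3k8[D270A] at 1 and 2 h, the responses of Map3k8[D270A] at 1 h, Elk1-/-Elk4-/- at 2 h, Nfkb1[SS/AA] and PD0325901 at 1 h and RSKi47 at 2 h, for Nfkb1[SS/AA] and PD0325901 at 1 h, PD0325901 at 40 and at 70 min, RSKi47 at 1 and 2 h, and PD0325901 against Map3k8[D270A]. It left 3 of 4 for LPS at 1 h in WT, without Plau, and 2 for the response of RSKi47 at 1 h, for 2 h against 1 h in WT and for Nfkb1[SS/AA] against Map3k8[D270A].

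Leaving out 1 replicate gave counts of 0 to 2 for Map3k8[D270A] unstimulated, 1 to 2 for Elk1-/-Elk4-/- unstimulated, 1 to 2 for Elk1-/-Elk4-/- against Map3k8[D270A] at 1 h, 1 to 2 for RSKi47 against PD0325901 and 1 to 2 for PD0325901 at 40 min. It gave 0 to 1 for Map3k8[D270A], Elk1-/-Elk4-/-, PD0325901 and RSKi47 at 0.5 h, RSKi47 without LPS and the response of Elk1-/-Elk4-/- at 1 h. Without WT replicate 9, Plaur passed for Map3k8[D270A] unstimulated (adjusted p = 0.0228), PD0325901 at 0.5 h (0.00712) and RSKi47 without LPS (0.00847), Plau for Map3k8[D270A] at 0.5 h (0.00949) and Nfkb1[SS/AA] unstimulated (0.0448), and Serpinb2 for Elk1-/-Elk4-/- at 0.5 h (0.0329), by limma with Benjamini-Hochberg adjustment. The Plau response of Map3k8[D270A] at 2 h also passed without WT replicate 9 (-0.43, limma adjusted p = 0.0241) and without Map3k8[D270A] replicate 4 (-0.39, adjusted p = 0.0395).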
